A study of Homo sapiens with 6 samples.

Results

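The endoplasmic reticulum (ER) is where secreted and membrane proteins enter the secretory pathway, fold, acquire disulfide bonds and are inspected before export. When misfolded proteins accumulate there, 3 membrane sensors, IRE1 (encoded by ERN1), PERK (EIF2AK3) and ATF6, start the unfolded protein response. PERK slows translation by phosphorylating eIF2α, IRE1 splices the mRNA of the transcription factor XBP1, and ATF6 is cleaved in the Golgi to release a transcription factor. ATF6 and XBP1 then raise the transcription of ER chaperones, of disulfide isomerases and of the machinery of ER-associated degradation (ERAD), which returns misfolded proteins to the cytosol for destruction. Cells with a heavy load of secreted protein, and many carcinomas, are known to rely on it.

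A set of 39 genes of this system was taken by symbol from the 60664 genes of the RNA-seq table, and all 39 were found there and passed the filter on low values. They comprised 5 sensors and transcription factors, 13 chaperones and co-chaperones, 8 disulfide isomerases and relatives, 10 ERAD genes and 3 genes of translocation and transport. The libraries came from 67R cells, a line derived from NCI-H1975 human lung adenocarcinoma cells by making them resistant to the EGFR inhibitor ASK120067. They received either a negative control siRNA (siNC, 3 libraries) or an siRNA against BCAT1, the cytosolic branched-chain amino acid transaminase (siBCAT1, 3 libraries), so that both groups shared the resistant background and the transfection. Knockdown was transient and the experiment covered a single resistant line, and the parental cells were not analysed here. The comparison asked how expression in the resistant cells differed between siBCAT1 and siNC. The labels do not give the siRNA sequence, but the study's methods use the name siBCAT1 for a single sequence. Effects of losing BCAT1 and other effects of the siRNA cannot be told apart in these libraries.

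Values are TPM, an abundance corrected for transcript length, so levels can be compared between genes and each value is a share of that library's RNA. Library sums lay between 992512 and 995593 TPM, and 23152 to 25043 genes per library were above 0. No read counts are held in such values, so depth is unknown, no counting error can be given, and the error stated is that among 3 libraries per group. The labels do not say whether these were separate cultures, and p-values measure only spread among libraries, which may be technical. Differences are on the log2(TPM + 1) scale, which understates the change of low genes. They were tested with limma over all 14286 genes that averaged 1 TPM or more. In limma, the spread of each gene is drawn toward that of genes at similar levels. A gene was called when its Benjamini-Hochberg adjusted p over all of these genes was under 0.05. With 3 libraries against 3, an exact permutation test of 1 gene gives a two-sided p of 0.1 at the lowest.

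BCAT1 (ENSG00000060982, chromosome 12, 24810022 to 24949459, GRCh38) was first examined as a check of the labels. Listed here and below in the order of replicates 1, 2 and 3, the siNC libraries held 42.7, 42.2 and 29.8 TPM of it and the siBCAT1 libraries 8.78, 7.1 and 8.0 TPM. All siBCAT1 libraries were therefore below all siNC libraries, with a log2 fold change of -2.12 (SE 0.15, limma adjusted p = 0.000272). Of 8 markers of lung adenocarcinoma epithelium, NKX2-1 was at most 0.10 TPM and EPCAM between 0.91 and 2.61 TPM, while the keratins KRT7, KRT8 and KRT18 were abundant. The summed level of the 8 epithelial markers lay between 2564 and 2969 TPM in siNC and between 1664 and 1952 TPM in siBCAT1, and 5 of the 7 that were tested fell. Leukocyte markers summed to between 30.3 and 39.4 TPM in siNC and between 53.7 and 60.8 TPM in siBCAT1, almost all of it CD68, a lysosomal protein that was called higher. CD3E was at 0 in every library and PTPRC was above 0 in 1 library, at 0.33 TPM. The 5 fibroblast markers summed to between 253 and 274 TPM in siNC and between 189 and 244 TPM in siBCAT1, mostly COL1A2, with 2 of 3 tested genes lower and DCN and LUM at 0 throughout, and the 4 endothelial markers summed to at most 2.69 TPM. The part of these shifts in the results below was not tested. In bulk RNA, a change in the share of cells of a kind and a change in RNA per cell cannot be told apart.

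Many promoters of this system carry the ER stress response element (ERSE), the letters CCAAT and CCACG with 9 bases between them, where the general factor NF-Y and ATF6 or XBP1 are known to bind. RefSeq promoter windows of GRCh38.p14, from 250 bases before to 50 bases after a gene's start (300 bases), were found for 34 of the 39 genes and searched on both strands. SEC24D, PDIA3, FKBP14, DERL1 and DERL3 had no window. An exact ERSE was present in 7 of the 34 genes (20.6%), against 25 of all 27305 genes in the same table (0.0916%). These 8 sites are printed because they are the sequence that the ER chaperones are known to share, 5′ to 3′ with the fixed letters in capitals and 5 flanking bases at each end, and HSP90B1 has a pair of them.
HSPA5, chr9:125241386-125241414, minus strand: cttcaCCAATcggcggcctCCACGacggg
HSP90B1, chr12:103930211-103930239, plus strand: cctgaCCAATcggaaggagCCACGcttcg
HSP90B1, chr12:103930316-103930344, minus strand: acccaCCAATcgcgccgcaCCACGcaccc
CALR, chr19:12938379-12938407, minus strand: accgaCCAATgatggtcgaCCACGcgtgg
CANX, chr5:179698773-179698801, plus strand: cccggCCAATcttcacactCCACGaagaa
CRELD2, chr22:49918549-49918577, minus strand: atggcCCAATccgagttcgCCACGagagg
PDIA6, chr2:10812848-10812876, minus strand: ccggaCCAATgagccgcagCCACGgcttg
XBP1, chr22:28800598-28800626, minus strand: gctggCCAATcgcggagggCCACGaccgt

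The centres of these sites lay between 216 and 43 bases before the start, except that CANX has 3 windows in the table in which the same site lies 180 or 142 bases before the start or on it. A shorter variant, ERSE-II, has ATTGG and CCACG with 1 base between them, and ATTGG is CCAAT read on the other strand. It was present in HERPUD1, HYOU1 and SDF2L1, 3 of the 34 genes (8.82%) against 0.0696% of all genes. The 4 sites are printed to set these genes, which carry no exact ERSE, beside those above.
HYOU1, chr11:119057375-119057395, plus strand: ctgggATTGGaCCACGtcacg
HYOU1, chr11:119057269-119057289, plus strand: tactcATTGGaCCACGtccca
HERPUD1, chr16:56932020-56932040, plus strand: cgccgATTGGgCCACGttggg
SDF2L1, chr22:21642109-21642129, minus strand: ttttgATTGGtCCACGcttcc

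HERPUD1 also holds an ERSE whose last base is changed. Its sequence is ctcagCCAATgggcggcagCCACAgagcg, at chr16:56932054-56932082 on the plus strand. The element TGACGTGG, known as a site of XBP1 and ATF6, was found in DNAJC10, HYOU1, TXNDC11 and TXNDC5, 4 of 34 genes (11.8%) against 0.927% of all genes. In HYOU1 it overlaps the first ERSE-II site above. The variant TGACGTGA was in 0 of the 34 genes (0.52% of all genes), as were TGATGNAAT (1.22%) and ATTGCATCA (0.293%), 2 elements of the amino acid response. A match is a description of letters and not a site shown to be bound.

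Of the 39 genes, 13 were higher and 3 were lower in siBCAT1 than in siNC. Among all 14286 genes tested, 16.7% were called higher, 10.4% lower and 27.1% in either direction, against 33.3%, 7.69% and 41.0% of the 39. The groups did not overlap for 24 of the 39 genes (61.5%), against 44.1% of all genes tested. The median log2 fold change was 0.15 over the 39 genes and 0.04 over all genes tested, and 27 of the 39 estimates lay above 0. Abundant genes were called more often in general: the division at 100 TPM, chosen after the values were seen, put 15 of the 39 genes above it, of which 10 were called, beside 42.8% of all genes above that level. Of the 24 genes at or under 100 TPM, 6 were called, beside 25.2% of all genes at such levels.

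The roles differed in their counts. Chaperones and co-chaperones had 8 higher (61.5%) and 2 lower (15.4%) of 13 (median log2 fold change 0.41). Disulfide isomerases and relatives had 3 higher (37.5%) and 1 lower (12.5%) of 8 (median 0.25). Over all genes tested, 16.7% were higher and 10.4% lower. Of the sensors and transcription factors, 1 of 5 was higher (20%), and of the ERAD genes, 1 of 10 (10%, median -0.03), with 0 lower in either role. The last 2 shares were near that of all genes and rest on few genes. None of the 3 translocation and transport genes was called.

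**Figure D1:**
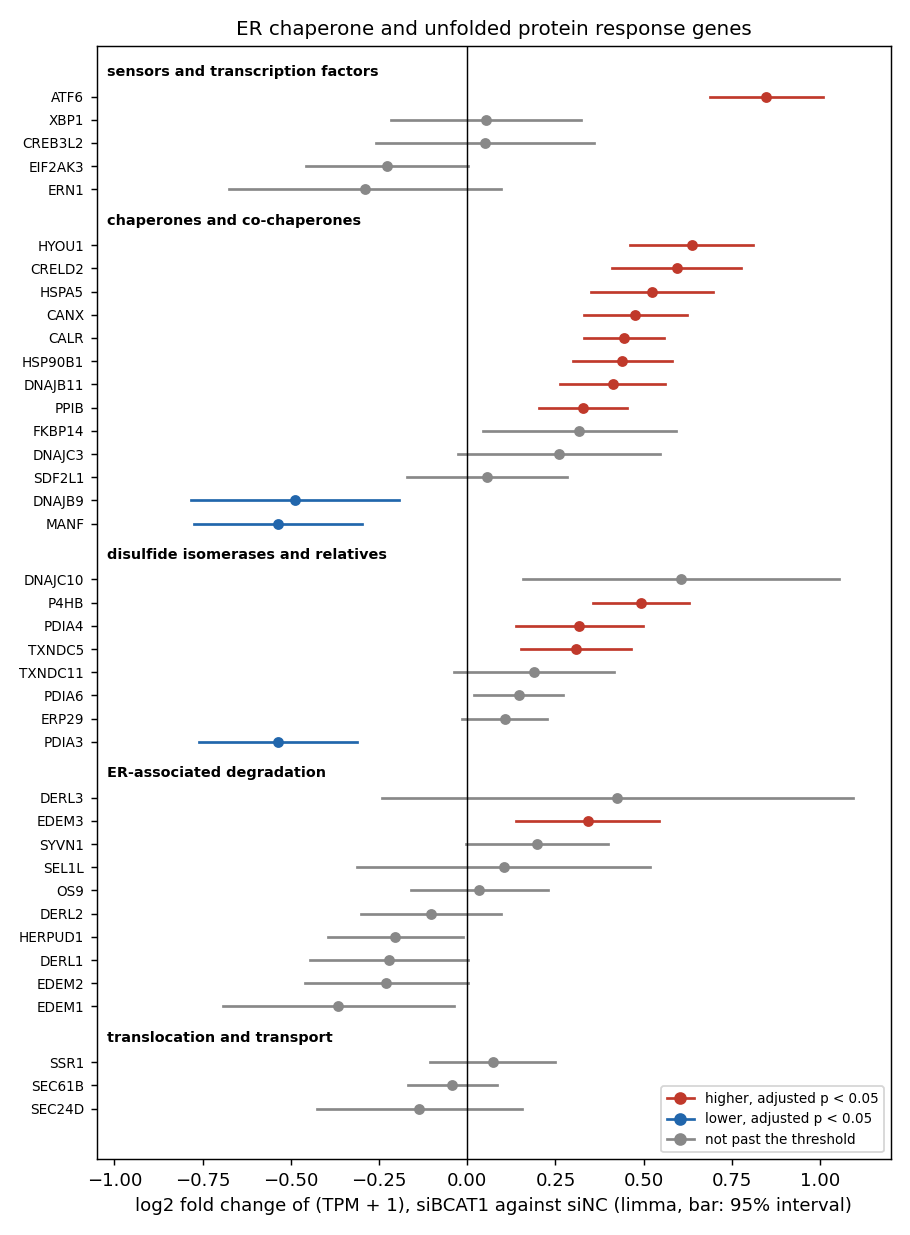
Log2 fold change of (TPM + 1), siBCAT1 against siNC, for each of the 39 genes by role (points, limma estimate; bars, 95% interval of the single gene; red, called higher; blue, called lower; grey, not called). The red points run from 0.31 to 0.85 and lie mostly among the chaperones and disulfide isomerases, and the blue points are DNAJB9, MANF and PDIA3.

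Among the sensors, the mRNA of ATF6 rose and those of the other 4 genes did not pass the test. ATF6 (ENSG00000118217, chromosome 1, 161766294 to 161964070, plus strand, GRCh38) is the transcription factor held in the ER membrane that is released by cleavage. It measured 36.8, 36.5 and 33.5 TPM in siNC and 67.0, 63.0 and 64.3 TPM in siBCAT1. The siBCAT1 libraries lay close together and all above siNC, a 1.82-fold difference of the means and the largest called rise of the 39 genes (log2 fold change 0.85, SE 0.07, adjusted p = 0.00039).

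ERN1 encodes IRE1, the kinase and RNase that splices XBP1, and was near the bottom of the set in level, at 3.38, 3.75 and 2.72 TPM in siNC and 2.86, 2.47 and 2.17 TPM in siBCAT1. EIF2AK3 encodes PERK and measured 24.8, 21.0 and 22.7 TPM in siNC and 21.3, 18.15 and 18.7 TPM in siBCAT1. For both genes the highest siBCAT1 library, replicate 1, reached into the siNC range, and the estimates were -0.29 (95% interval -0.67 to 0.10, adjusted p = 0.237) and -0.23 (-0.46 to 0.00, adjusted p = 0.129). EIF2AK3 passed the threshold after quantile normalization (adjusted p = 0.0485) and with the replicate number as a block (adjusted p = 0.049).

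XBP1 measured 133, 111 and 130.2 TPM in siNC and 129, 112 and 148 TPM in siBCAT1, with the groups overlapping (log2 fold change 0.05, 95% interval -0.22 to 0.32, adjusted p = 0.768). A gene-level value counts spliced and unspliced XBP1 mRNA together. CREB3L2, a membrane-bound relative of ATF6 known for its role in collagen-secreting cells, measured 17.6, 14.3 and 16.9 TPM in siNC and 19.45, 14.3 and 17.0 TPM in siBCAT1. Its groups overlapped as well (log2 fold change 0.05, 95% interval -0.26 to 0.36, adjusted p = 0.81). The direction of XBP1 and CREB3L2 turned under some alternatives.

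Ratios within a library do not depend on how the libraries were scaled. ATF6 stood to EIF2AK3 at 1.48, 1.73 and 1.48 in siNC and at 3.15, 3.47 and 3.45 in siBCAT1. ATF6 stood to XBP1 at 0.277, 0.329 and 0.257 in siNC and at 0.521, 0.56 and 0.434 in siBCAT1. Neither ratio overlapped between the groups. The ratios were chosen after the values were seen and restate the levels above.

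**Figure D2:**
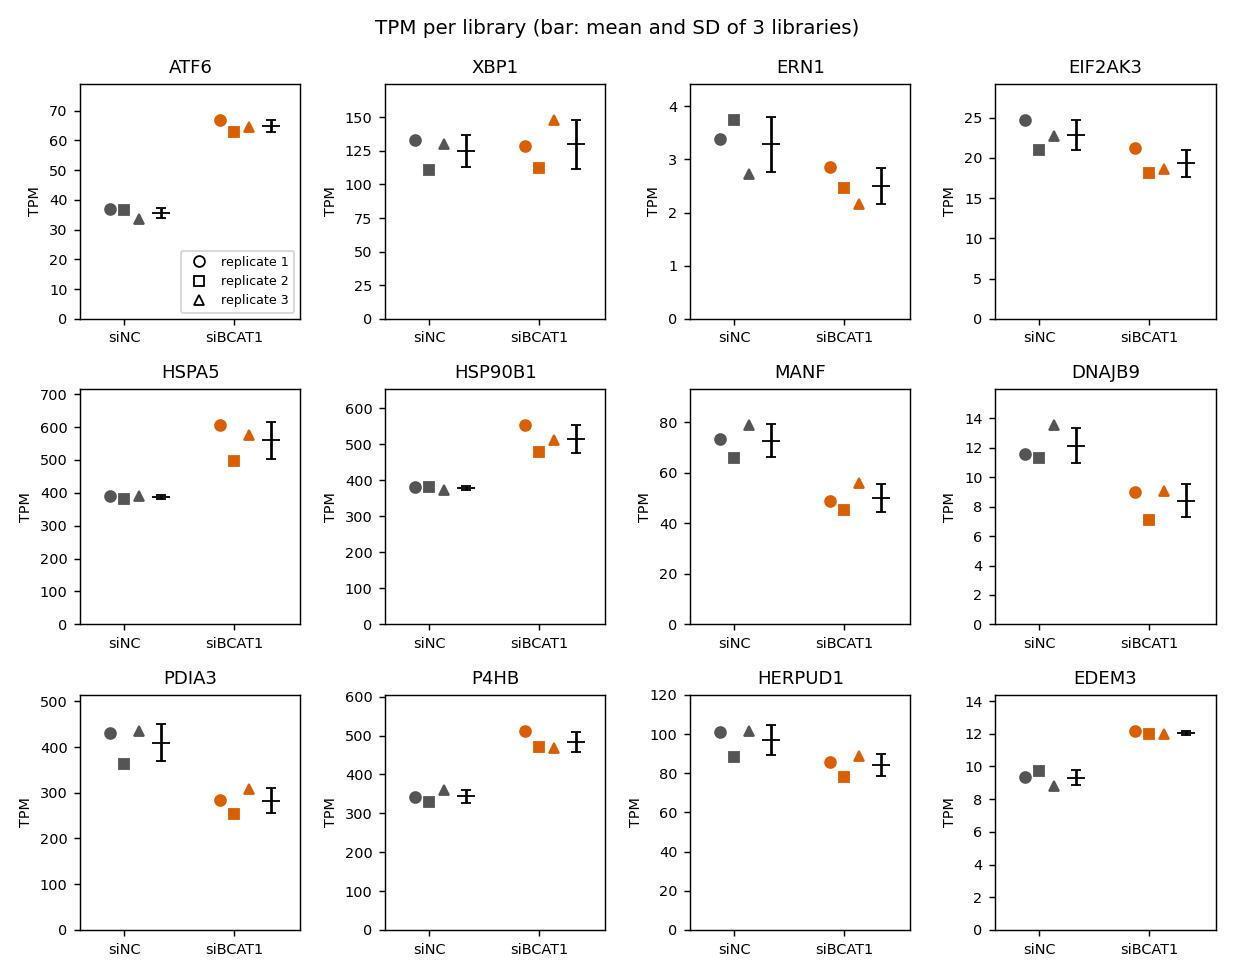
TPM in each library for 12 of the 39 genes (circle, square and triangle, replicates 1, 2 and 3; cross and bar, mean and SD of 3 libraries; each axis starts at 0). ATF6, HSPA5, HSP90B1, P4HB and EDEM3 lie higher in all siBCAT1 libraries, MANF, DNAJB9 and PDIA3 lie lower in all of them, and XBP1, ERN1, EIF2AK3 and HERPUD1 overlap between the groups.

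Several abundant chaperones rose. HSPA5 (BiP; ENSG00000044574, chromosome 9, 125234853 to 125241330, minus strand, GRCh38), the HSP70 of the ER lumen that also holds the stress sensors inactive, measured 390.1, 382 and 391 TPM in siNC and 606, 498 and 575 TPM in siBCAT1. Its siNC libraries were nearly level, and all siBCAT1 libraries were above them, replicate 2 least so (log2 fold change 0.52, SE 0.07, adjusted p = 0.00284). HSP90B1 (GRP94; chromosome 12, 103930107 to 103953645, plus strand), the HSP90 of the ER lumen, measured 382, 382 and 372 TPM in siNC and 553, 479 and 512 TPM in siBCAT1. It had the same order of the siBCAT1 libraries and no overlap (log2 fold change 0.44, SE 0.06, adjusted p = 0.00248).

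HYOU1, the large HSP70 relative that serves HSPA5 as a nucleotide exchange factor, measured 164, 156 and 160.0 TPM in siNC and 271, 226 and 253 TPM in siBCAT1. Replicate 2 was again the lowest siBCAT1 library, and none overlapped siNC (log2 fold change 0.64, SE 0.07, adjusted p = 0.00141). DNAJB11, the soluble J-domain partner of HSPA5, measured 54.3, 59.3 and 59.6 TPM in siNC and 75.5, 77.4 and 78.5 TPM in siBCAT1. Its groups were well apart and its siBCAT1 libraries agreed closely (log2 fold change 0.41, SE 0.06, adjusted p = 0.00399).

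The lectin chaperones CALR and CANX, which hold glycoproteins while they fold, both rose. CALR, the most abundant of the 39 genes, measured 1009, 1023 and 1086 TPM in siNC and 1414, 1355 and 1476 TPM in siBCAT1 (log2 fold change 0.44, SE 0.05, adjusted p = 0.0011). CANX, its membrane-bound counterpart, measured 199, 204 and 202 TPM in siNC and 303, 278 and 262 TPM in siBCAT1 (log2 fold change 0.48, SE 0.06, adjusted p = 0.00219). In both genes every siBCAT1 library was above every siNC library, and the ratio of CANX to CALR, with means of 0.194 ± 0.00706 (SD, n = 3) and 0.199 ± 0.0191 (SD, n = 3), overlapped between the groups.

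CRELD2, a secreted ER stress protein, measured 21.6, 21.8 and 20.8 TPM in siNC and 30.9, 32.3 and 35.3 TPM in siBCAT1 (log2 fold change 0.59, SE 0.08, adjusted p = 0.00225). PPIB, the cyclophilin B prolyl isomerase of the ER, measured 441, 488 and 489 TPM in siNC and 597, 581 and 603 TPM in siBCAT1 (log2 fold change 0.33, SE 0.05, adjusted p = 0.00493). Neither gene had overlapping groups, and in both replicate 3 was the highest siBCAT1 library.

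A pair of genes of the same role went the other way. MANF (ENSG00000145050, chromosome 3, 51385047 to 51389397, plus strand, GRCh38), a small secreted partner of HSPA5 that is commonly induced with it, measured 73.4, 66.0 and 78.9 TPM in siNC and 48.8, 45.2 and 55.9 TPM in siBCAT1. All siBCAT1 libraries were below siNC (log2 fold change -0.54, SE 0.10, adjusted p = 0.0089). DNAJB9 (ERdj4; chromosome 7, 108569568 to 108574850, plus strand), a J-domain protein that brings HSPA5 to IRE1 and whose gene is a known target of XBP1, measured 11.6, 11.3 and 13.55 TPM in siNC and 9.01, 7.11 and 9.07 TPM in siBCAT1. Its groups did not overlap either (log2 fold change -0.49, SE 0.13, adjusted p = 0.0272), but its call was lost when genes of low value were kept (adjusted p = 0.0736) and when siNC replicate 1 or 3 or any siBCAT1 library was left out (adjusted p between 0.0556 and 0.0952).

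The ratios of HSPA5 to these partners restate the same levels without the scaling of the libraries. HSPA5 stood to MANF at 5.32, 5.78 and 4.96 in siNC and at 12.4, 11 and 10.3 in siBCAT1. HSPA5 stood to DNAJB9 at 33.6, 33.7 and 28.9 in siNC and at 67.3, 70.1 and 63.4 in siBCAT1. In contrast, the ratio of HSPA5 to HSP90B1 overlapped between the groups, with means of 1.02 ± 0.026 (SD, n = 3) in siNC and 1.09 ± 0.0421 (SD, n = 3) in siBCAT1.

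The 3 remaining chaperone genes did not pass the test. FKBP14, a prolyl isomerase, measured 10.2, 11.5 and 8.56 TPM in siNC and 12.45, 12.85 and 13.0 TPM in siBCAT1, without overlap (log2 fold change 0.32, 95% interval 0.05 to 0.59, adjusted p = 0.0843). It was called with a correction for gene length and GC content (adjusted p = 0.044) and without siNC replicate 2 (adjusted p = 0.0446). DNAJC3, a co-chaperone that also inhibits PERK, was at 3.55 to 3.78 TPM in siNC and 4.15 to 4.84 TPM in siBCAT1 (log2 fold change 0.26, adjusted p = 0.16), and SDF2L1, a cofactor of DNAJB11, overlapped between the groups at 62.8 to 73.1 and 63.0 to 78.1 TPM (log2 fold change 0.06, adjusted p = 0.712).

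The summed level of the 13 chaperone genes shows the size of these changes in RNA. It was 2823, 2876 and 2958 TPM in siNC and 3998, 3659 and 3954 TPM in siBCAT1, 1.34-fold higher by the means, with all siBCAT1 libraries above siNC. The 39 genes together took between 0.522% and 0.546% of the summed TPM in siNC libraries and between 0.612% and 0.664% in siBCAT1 libraries. The 5 most abundant of them, CALR, PPIB, HSPA5, HSP90B1 and P4HB, made up 48.4% to 50.1% of that sum in siNC and 55.5% to 55.7% in siBCAT1. These sums rest on the genes tested one by one above and were given no test of their own.

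**Figure D3:**
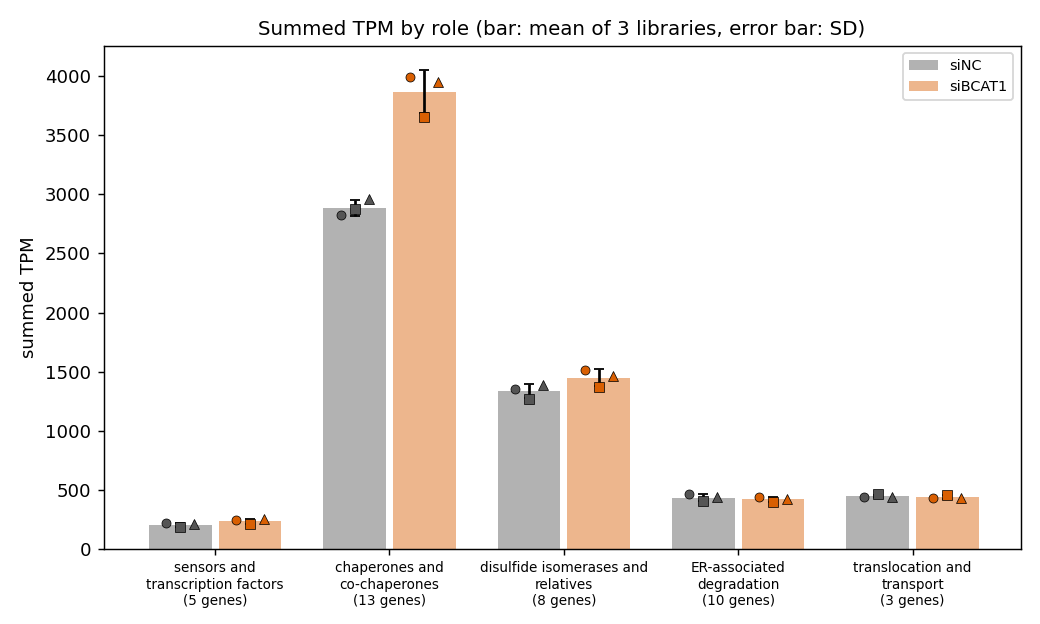
Summed TPM of the genes of each role (bars, mean of 3 libraries; error bars, SD; circles, squares and triangles, replicates 1, 2 and 3). The chaperone sum goes from 2886 ± 68.3 to 3870 ± 184 TPM without overlap, and the ERAD sum, 433 ± 28.8 and 417 ± 17.9 TPM, and the translocation sum, 447 ± 10.9 and 438 ± 15.7 TPM, overlap between the groups.

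The disulfide isomerases form and rearrange the disulfide bonds of proteins in the ER. P4HB (PDI), the founding member of the family and a subunit of collagen prolyl 4-hydroxylase, measured 342, 328 and 359.9 TPM in siNC and 513, 471 and 467 TPM in siBCAT1. The groups were far apart relative to their spread (log2 fold change 0.49, SE 0.06, adjusted p = 0.00143). PDIA3 (ERp57; chromosome 15, 43746392 to 43773279, plus strand), which works on glycoproteins together with CALR and CANX, measured 430.3, 363 and 436 TPM in siNC and 284, 254 and 308 TPM in siBCAT1. It fell in all siBCAT1 libraries (log2 fold change -0.54, SE 0.10, adjusted p = 0.00714), while both of its lectin partners rose. P4HB stood to PDIA3 at 0.795, 0.905 and 0.825 in siNC and at 1.80, 1.85 and 1.52 in siBCAT1, so PDIA3 was the more abundant of the pair in every siNC library and P4HB in every siBCAT1 library. The PDIA3 pseudogenes listed in the table reached at most 0.884% of the PDIA3 level in any library.

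PDIA4, an isomerase known to associate with HSPA5, measured 114, 106 and 117 TPM in siNC and 151, 128 and 142 TPM in siBCAT1. TXNDC5, a thioredoxin-domain isomerase, measured 150.2, 157 and 151 TPM in siNC and 201, 174 and 195 TPM in siBCAT1. Both genes were called higher, with no overlap and with siBCAT1 replicate 2 nearest to siNC (log2 fold change 0.32, SE 0.08, adjusted p = 0.0216, and 0.31, SE 0.07, adjusted p = 0.0146). The call of PDIA4 was lost with no filter (adjusted p = 0.0552), after quantile normalization (0.0644) and without the trend in limma (0.0527), that of TXNDC5 after quantile normalization (0.0691). Both were also lost without siNC replicate 1 and without siBCAT1 replicate 1 or 3 (adjusted p between 0.0539 and 0.0714), PDIA4 in addition without siNC replicate 2 (0.05) and TXNDC5 without siNC replicate 3 (0.0536). A read-through transcript with TXNDC5, BLOC1S5-TXNDC5, was listed at 1.64 TPM or less.

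DNAJC10 (ERdj5), a reductase that works in ERAD, measured 9.60, 9.77 and 6.60 TPM in siNC and 16.6, 13.6 and 10.9 TPM in siBCAT1. The groups did not overlap but the libraries of each spread widely, with replicate 3 the lowest in both (log2 fold change 0.61, SE 0.19, adjusted p = 0.0533). It passed the threshold under 7 alternatives, with adjusted p between 0.00567 and 0.0474. PDIA6, TXNDC11 and ERP29 were not called, with log2 fold changes of 0.15, 0.19 and 0.11 and adjusted p between 0.0845 and 0.192, and the groups of TXNDC11 alone among them overlapped.

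Of the 10 ERAD genes, 9 did not pass the test. EDEM3, a mannosidase that marks misfolded glycoproteins for disposal, was called higher, with 9.38, 9.75 and 8.81 TPM in siNC and 12.2, 12.0 and 12.0 TPM in siBCAT1. The siBCAT1 libraries were almost level and all above siNC (log2 fold change 0.34, SE 0.09, adjusted p = 0.0259). The call was lost when any library other than siNC replicate 2 was left out, with adjusted p between 0.0703 and 0.0789. Its relatives had estimates below 0 and were not called: EDEM1 measured 11.1, 10.6 and 12.7 TPM in siNC and 10.4, 8.53 and 7.29 TPM in siBCAT1 (log2 fold change -0.37, SE 0.14, adjusted p = 0.0954), and EDEM2 measured 37.1, 31.8 and 36.9 TPM and 30.7, 26.9 and 32.1 TPM (log2 fold change -0.23, SE 0.10, adjusted p = 0.129). EDEM1 was without overlap and EDEM2 overlapped.

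HERPUD1, a membrane scaffold of the degradation complex and a sensitive stress target, measured 101, 88.3 and 102 TPM in siNC and 85.7, 77.9 and 88.7 TPM in siBCAT1. The groups overlapped narrowly, since siBCAT1 replicate 3 was just above siNC replicate 2 (log2 fold change -0.20, SE 0.08, adjusted p = 0.107). DERL1, a channel protein of retrotranslocation, measured 39.5, 36.4 and 32.5 TPM in siNC and 32.0, 32.1 and 28.3 TPM in siBCAT1, just without overlap (log2 fold change -0.22, SE 0.10, adjusted p = 0.13). HERPUD1, EDEM2, DERL1 and EIF2AK3 were called lower after quantile normalization and with the replicate block, which brought the lower genes from 3 to 7 of the 39 in each. Over all 14286 genes, the lower genes went from 1483 to 1865 and 1795 under these settings.

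The other ERAD genes were not called. SYVN1 and SEL1L, the ubiquitin ligase HRD1 and its partner, had log2 fold changes of 0.20 (SE 0.09, adjusted p = 0.129) and 0.10 (SE 0.18, adjusted p = 0.704), and SYVN1 was without overlap. DERL2, DERL3 and the lectin OS9 had log2 fold changes of -0.10, 0.43 and 0.03 with adjusted p between 0.311 and 0.795 and overlapping groups. DERL3 was the least abundant of the 39 genes, at 1.21 to 3.50 TPM, with the widest interval (-0.24 to 1.09).

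Of the translocation and transport genes, SEC61B, a subunit of the channel through which proteins enter the ER, was at 333 to 357 TPM in siNC and 319 to 351 TPM in siBCAT1. Its log2 fold change was -0.04 with a 95% interval of -0.17 to 0.09 (adjusted p = 0.606). SSR1, a subunit of the translocon-associated complex, and SEC24D, a cargo adaptor of the vesicles that leave the ER, had log2 fold changes of 0.07 and -0.14 (adjusted p = 0.519 and 0.453). The groups overlapped for all 3 genes.

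**Figure D4:**
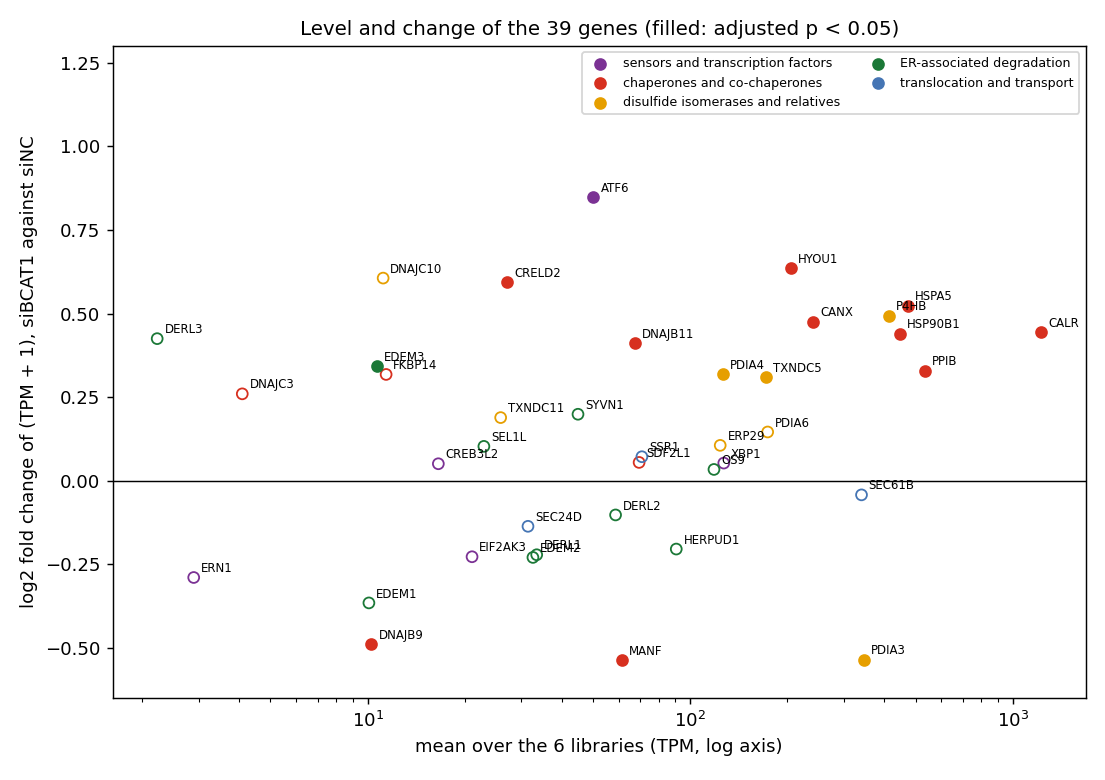
Mean level over the 6 libraries (TPM, log axis) against the log2 fold change of (TPM + 1) for the 39 genes, coloured by role (filled, called; open, not called). Of the 15 genes above 100 TPM, 9 are called higher, beside 26.7% of all tested genes above that level, and PDIA3 is called lower.

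The rises differed in how far each siBCAT1 library had moved. Among the 13 genes called higher, the top siBCAT1 library was replicate 1 in 9, replicate 3 in 4 and replicate 2 in 0, and the lowest was replicate 2 in 8. The median coefficient of variation over the 39 genes was 7.55% in siNC and 7.55% in siBCAT1. Leaving out each library in turn gave a log2 fold change of HSPA5 between 0.46 and 0.61, and it was called each time (adjusted p at most 0.0212).

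The elements printed above can be set beside these values. Of the 7 genes with an exact ERSE, 5 were called higher (HSPA5, HSP90B1, CALR, CANX and CRELD2), 0 lower and 2 were not called (PDIA6 and XBP1), with a median log2 fold change of 0.44. Of the 27 genes with a window and no exact ERSE, 8 were called higher and 2 lower, with a median of 0.10. Over all genes tested, 16.7% were called higher and 10.4% lower. The genes with an exact ERSE, except CRELD2, averaged above 100 TPM, where genes were called more often in general. The part of level in these counts was not tested. Among the genes with ERSE-II, HYOU1 was called higher, and SDF2L1 and HERPUD1 were not called, with log2 fold changes of 0.06 and -0.20. Of the 4 genes with TGACGTGG, HYOU1 and TXNDC5 were called higher. MANF and DNAJB9 had none of the searched elements in their windows, which says only that these letters are not in 300 bases. These are few genes in a list chosen with results known, and they are given as counts.

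**Figure D5:**
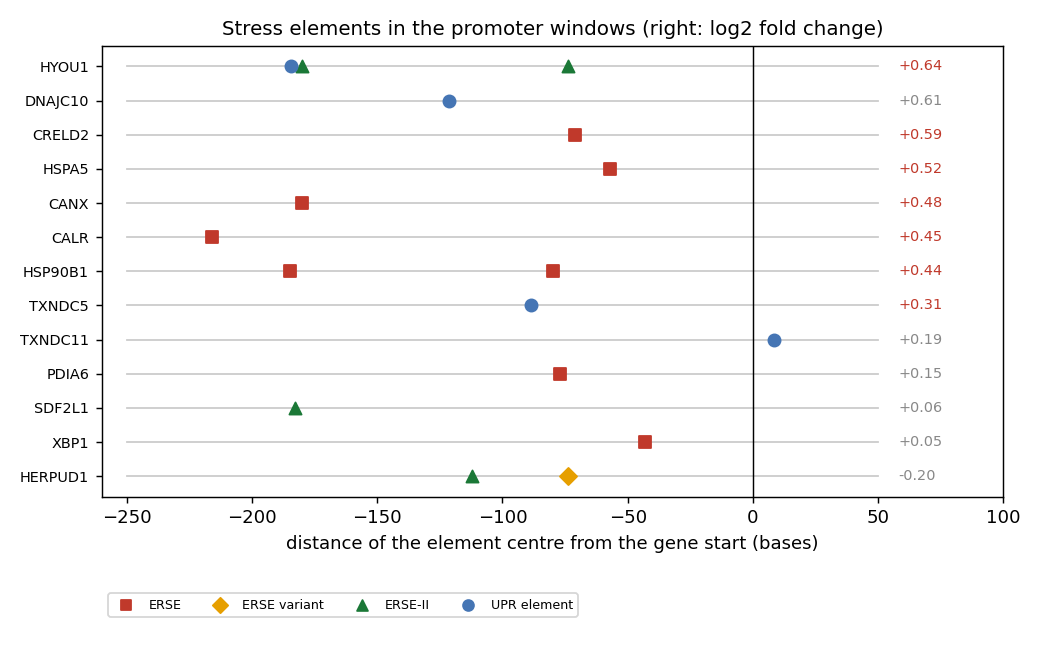
Position of each element within the promoter windows of the 13 genes that hold one (grey line, window from 250 bases before to 50 after the start; symbols, element centres; the first window is drawn for CANX), ordered by log2 fold change, printed at the right in red for called and grey for not called. Genes with an ERSE (red squares) run from 0.59 in CRELD2 to 0.05 in XBP1.

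Other genes of the pathway were taken from lists by function, 138 of which were tested, and 33 were higher and 18 lower (37.0% called, 23.9% higher and 13.0% lower, median log2 fold change 0.09). The shares over all genes tested were 27.1% called, 16.7% higher and 10.4% lower. In a list of 17 genes of the integrated stress response, which PERK shares with the other eIF2α kinases (EIF2AK1, EIF2AK2 and EIF2AK4, also in the list), 7 were higher (41.2%, against 16.7% of all genes) and 1 was lower (5.88%, against 10.4%). Of the 17 estimates, 13 lay above 0 and 4 below. The 9 genes not called included CHAC1, DDIT4 and CEBPB (log2 fold change -0.17, -0.24 and -0.285). ATF3 was not called either (0.51, adjusted p = 0.15), and its groups overlapped. DDIT3 (CHOP), the transcription factor of terminal ER stress, measured 12.8, 12.0 and 10.7 TPM in siNC and 24.95, 21.5 and 26.5 TPM in siBCAT1, with no overlap (log2 fold change 0.98, SE 0.11, adjusted p = 0.00119). PPP1R15A (GADD34), the stress-induced subunit of the phosphatase that restores eIF2α, rose (log2 fold change 0.76, SE 0.11, adjusted p = 0.00357), and its constitutive counterpart PPP1R15B fell (log2 fold change -0.51, SE 0.09, adjusted p = 0.00794). Of the 7 genes called higher, DDIT3, TRIB3, PPP1R15A and CEBPG kept the call whichever library was left out. ASNS and SESN2 were called in 3 of these 6 fits each (adjusted p up to 0.0527 and 0.0921). ATF4 (log2 fold change 0.26, adjusted p = 0.0451) was called in 1 of them (up to 0.136). ATF4 also lost it with no filter, median-ratio scaling, quantile normalization, the length and GC correction, or no trend (0.0671 to 0.125), and SESN2 with no filter (0.0748).

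Of 27 other chaperones and genes of glycoprotein quality control, 9 were higher (33.3%, against 16.7% of all genes) and 2 lower (7.41%, against 10.4%). GANAB, the catalytic subunit of glucosidase II that trims glycans for CALR and CANX, measured 81.0, 93.7 and 84.7 TPM in siNC and 322, 294 and 297 TPM in siBCAT1. The siBCAT1 libraries were far above the siNC range, and the estimate was larger than that of any of the 39 genes (log2 fold change 1.80, SE 0.07, adjusted p = 6.28e-05). SIL1, another exchange factor of HSPA5, rose as well (log2 fold change 0.88, SE 0.07, adjusted p = 0.000365), and the prolyl isomerases FKBP2 (log2 fold change -0.37, adjusted p = 0.017) and PPIC (-0.33, adjusted p = 0.0164) fell. The call of FKBP2 was lost without siNC replicate 1 or 3 or siBCAT1 replicate 1 or 2 (adjusted p between 0.0633 and 0.0683) and with no filter (0.0525), and that of PPIC without replicate 1 or 3 of either group (0.0515 to 0.0583).

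Among 16 tested thiol oxidoreductases outside the 39 genes, 4 were higher (25.0%) and 2 lower (12.5%), shares near the 16.7% and 10.4% of all genes. PRDX4, the peroxiredoxin of the ER, measured 104, 130.02 and 113 TPM in siNC and 265, 277 and 285 TPM in siBCAT1, with a wide gap between the groups (log2 fold change 1.25, SE 0.09, adjusted p = 0.000235). TXNDC12 also rose (log2 fold change 0.84, adjusted p = 0.000323). The membrane thioredoxins TMX2 and TMX1 fell (log2 fold change -0.92, adjusted p = 0.000411, and -0.46, adjusted p = 0.0247). TMX2 kept its call under every alternative run, and TMX1 lost it without siNC replicate 1 or 2 or siBCAT1 replicate 1 or 3 (adjusted p between 0.0564 and 0.0968) and with no filter (0.0678).

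Of 26 other ERAD components, 4 were higher (15.4%) and 4 lower (15.4%), near the 16.7% and 10.4% of all genes, with a median log2 fold change of -0.04. ERLIN2 and ERLIN1, which form a complex that degrades the IP3 receptor, rose (log2 fold change 1.34, adjusted p = 0.00232, and 0.99, adjusted p = 0.000586). VCP, the ATPase that pulls substrates out of the membrane, and the ubiquitin ligase STUB1 fell (log2 fold change -0.54, adjusted p = 0.0011, and -0.25, adjusted p = 0.00939).

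Of 35 genes of the translocon, signal peptidase, oligosaccharyltransferase and COPII coat, 7 were higher (20.0%) and 5 lower (14.3%), near the 16.7% and 10.4% of all genes (median log2 fold change 0.02). SEC13 rose and SEC23A fell, both of them COPII coat subunits (log2 fold change 0.41, adjusted p = 0.00275, and -0.79, adjusted p = 0.00149). The signal peptidase subunit SEC11C rose (0.33, adjusted p = 0.0432) and the channel subunit SEC61A2 fell (-0.43, adjusted p = 0.0143). The call of SEC11C was lost whichever library was left out (adjusted p between 0.0556 and 0.137) and under 5 other alternatives (0.0633 to 0.127), and that of SEC61A2 without siNC replicate 1 or 3 or siBCAT1 replicate 2 or 3 (0.0522 to 0.0599).

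Of 17 tested genes among other sensors, proteases and the CREB3 family, 2 were higher (11.8%, against 16.7% of all genes) and 4 lower (23.5%, against 10.4%). CREB3 and the IRE1 adaptor TRAF2 rose (log2 fold change 0.47, adjusted p = 0.00535, and 0.43, adjusted p = 0.0158), and CREB3L3, which was at or under 3.54 TPM, and WFS1 fell (log2 fold change -1.13, adjusted p = 0.0206, and -0.48, adjusted p = 0.0112). CREB3 kept its call whichever library was left out, and TRAF2 lost it without siNC replicate 1 or siBCAT1 replicate 1 or 3 (adjusted p between 0.0562 and 0.0659). CREB3L3 lost its call without any library other than siNC replicate 2 (0.05 to 0.0672) and with no filter (0.0635), and WFS1 without siNC replicate 1 (0.0519).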

How the data were processed

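The authors prepared stranded mRNA libraries, used HISAT2 for the alignment of the cleaned reads and StringTie for transcripts. The submitters' processing notes name fastp and GRCh38, and the versions, the annotation and the strand setting of the counting were not given in the sources used here. The deposited table holds 1 TPM value per gene and library, beside a gene length, and the values themselves gave the unit. Without the strand setting, reads of overlapping genes may be shared.

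Two-sided tests on log2(TPM + 1) used limma 3.58.1 (R 4.3.3; all 6 libraries, trend in eBayes, no covariate) for the 14286 genes that averaged 1 TPM or more. In simulated data for this comparison, 0.875 of 200 changed genes were called, and 0 of these had the wrong direction. This share holds only for changes of the size simulated, which was not matched to the estimates reported above. The called rises of the ER genes ran from 0.31 to 0.85 on the log2 scale. How often changes of that size or smaller would be called was not tested, so the share says nothing about the genes not called. Sums, ratios, promoter searches and figures were made in Python 3.11.15 with numpy 2.4.6, pandas 2.3.3 and matplotlib 3.10.9. Gene positions are from GENCODE on GRCh38.

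The genes, roles and lists were chosen with earlier results of these data known. Values were given in every library for BCAT1, the sensors, HSPA5, HSP90B1 and the called genes without overlap, and for genes whose call changed under an alternative. From each further list, up to 2 genes with the largest called rise and up to 2 with the largest called fall were named. In the integrated stress response list, the other genes called higher were named too. CHAC1, DDIT4, CEBPB and ATF3 were named from those not called, after values were seen. EDEM1, GANAB's values per library and the groupings by level and element were chosen after values were seen, as were the ratios. Alternatives changed the filter, pseudocount, scaling, length and GC correction, replicate block, trend and libraries. Pseudogenes and read-through copies were matched by name.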

Additional observations from a re-analysis of the deposited data

How the results depend on the processing

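Of the 16 called genes, 12 kept their call and direction under all 16 alternatives, and the direction of the 16 was never reversed. BCAT1 was called lower under each. Without a filter, which puts more genes in the test, 12 of the 39 genes were higher and 2 lower. Of all genes, 1607 were then higher and 960 lower. After quantile normalization, with the replicate number as a block, and with the block and a correction for length and GC content, 7 of the 39 genes were lower. Of all 14286 genes, 1865, 1795 and 1871 were lower under these settings, against 1483 in the main fit. A minimum log2 fold change of 0.5 left 4 of the 39 genes higher and 2 lower, and 1270 of all 14286 genes higher and 887 lower. Under this rule the share of higher genes in the 39 was near that in all genes, unlike the 33.3% and 16.7% of the main fit. The shares of lower genes were near each other too. Leaving out each library gave 10 to 13 of the 39 genes higher and 2 to 4 lower, and 1435 to 2276 of all genes higher and 796 to 1430 lower. Over all genes, the count of lower genes fell by more than 1.5 times without any 1 library other than siNC replicate 2, to between 796 and 981. Leaving out a library leaves fewer libraries, and the minimum log2 fold change is a stricter rule. The causes of the changed counts were not tested.

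The estimates that turned were not called in any of these fits. Leaving out each library in turn gave -0.047 (without siBCAT1 replicate 3) to 0.152 for XBP1, with -0.028 without siNC replicate 2, and it was -0.039 after quantile normalization and -0.008 with the length and GC correction, alone or with the block. CREB3L2 ranged from -0.050 (without siBCAT1 replicate 1) to 0.158, with -0.034 without siNC replicate 2. SDF2L1 ranged from -0.016 (without siBCAT1 replicate 3) to 0.137, with -0.001 without siNC replicate 1, and was -0.026 after quantile normalization. SEL1L ranged from -0.018 (without siNC replicate 3) to 0.278, with -0.011 without siBCAT1 replicate 1. OS9 ranged from -0.030 (without siNC replicate 2) to 0.097, with -0.007 without siBCAT1 replicate 3, and was -0.014 with median-ratio scaling and -0.052 after quantile normalization. SSR1 was -0.008 after quantile normalization.

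Libraries of the same number deviated together weakly (correlations of 0.0844, 0.102 and 0.124 for replicates 1, 2 and 3, against -0.0814 to -0.0134 for other pairs). Every library correlated best with its own number, a hint from the data, but the labels name no pairing, so the block is not the reported test. With the block, 14 of the 39 genes and 2773 of all 14286 genes were higher, against 13 and 2382 in the main fit. TPM hold no depth, so what depth limits could not be measured.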
